A study of Mus musculus with 3 samples.

Results

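The genes described here are 6 genes of the MHC class II antigen presentation pathway, H2-Aa, H2-Eb1, H2-Ob, H2-DMb1, Cd74 and Ciita, out of 6795 genes with a symbol on the array. They were selected on their ratios in the comparison reported below, with those ratios already known, so their values are given as a description and without a test. Each was measured by 1 probe that carries a single gene symbol in the platform annotation. The study compared mouse thymocytes on 3 spotted 2-colour arrays of 1 print. One RNA came from purified CD69hi thymocytes of wild-type mice, which the sample labels call B6. The other came from thymocytes of Zap70-/- mice that had not been sorted, and the titles call it CD69lo. The sources used here do not give the strain background of the Zap70-/- mice, the ages or treatments of the mice, or how CD69hi cells were purified. Arrays 1 and 2 had Cy3 on the CD69hi RNA, and array 3, with the dyes reversed, had Cy5 on it. Nothing in the labels ties the arrays to separate mice, so a spread between arrays may be technical.

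MHC class II molecules are pairs of an α and a β chain that carry peptides from endosomes to the cell surface for recognition by CD4+ T cells. New pairs assemble on the invariant chain, which endosomal proteases then cut down to a short fragment in the peptide groove, and the DM molecule exchanges that fragment for peptides while the DO molecule restrains DM. The genes are switched on together by the coactivator CIITA, which docks on DNA-bound RFX, CREB and NF-Y factors at the X and Y boxes of their promoters. In the thymus, class II is displayed by epithelial cells, dendritic cells, macrophages and B cells, where it drives the selection of CD4+ cells. Mouse T-lineage cells themselves make little or none.

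The promoter set used here (RefSeq, GRCm38.p6) held no entry for Ciita and Cd74. It held 4 of the 6 genes, H2-Aa, H2-Eb1, H2-Ob and H2-DMb1, all in the MHC on chromosome 17. The windows of these 4 genes are shown because they share a pair of short motifs. The pair was to be expected, since class II genes are known for X and Y boxes. The genes were also chosen by their ratios, so the pair is a description and adds no support to those ratios. Each line gives the coding strand 5′ to 3′, upstream of the transcription start. The capitals mark the X box core (GCAAC, or GTAAC in H2-DMb1) and, after it, the Y box core (ATTGG).
H2-Aa: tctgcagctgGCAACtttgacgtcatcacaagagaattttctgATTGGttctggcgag
H2-Eb1: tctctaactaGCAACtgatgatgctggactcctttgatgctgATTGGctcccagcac
H2-Ob: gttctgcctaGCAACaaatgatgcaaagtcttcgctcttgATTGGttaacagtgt
H2-DMb1: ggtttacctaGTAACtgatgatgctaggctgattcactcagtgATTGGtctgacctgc

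The H2-Aa stretch lies at chr17:34287857-34287914 on the minus strand. The H2-Eb1 stretch lies at chr17:34305766-34305822, that of H2-Ob at chr17:34238808-34238862 and that of H2-DMb1 at chr17:34153087-34153144, all on the plus strand. The first motif begins 81 bases before the start of H2-Aa, 91 before that of H2-Eb1, 87 before that of H2-Ob and 94 before that of H2-DMb1. The spacer between both motifs measures 28 bases in H2-Aa and H2-DMb1, 27 in H2-Eb1 and 25 in H2-Ob. Windows of 250 bases before to 50 after each start were searched on both strands. GCAAC followed by ATTGG after 20 to 35 bases occurred in 3 of these 4 promoters and in 0.794% of the 32851 promoters of that set, at the same length. H2-DMb1 has GTAAC at that place. The wider pattern GNAAC, tried after its letters were seen and containing the first pattern, matched all 4 and 2.67% of all promoters. ATTGG or CCAAT alone is common, at 37.4% of promoters, as is GCAAC or GTTGC, at 35.2%. A match describes letters in a window and does not show binding.

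Ratios are given as CD69hi over Zap70-/- on the log2 scale, where 1 is a 2-fold difference. The deposited ratios of arrays 1 and 2 were multiplied by -1 according to the labelled dyes. Reading the deposited value as Cy5 over Cy3 is likely but not stated, and the opposite reading would turn every sign. Array 3 ran against the others before turning (r = -0.25 with array 1 and -0.40 with array 2, over 9596 probes). Arrays 1 and 2, labelled alike, had r = 0.61, so array 3 was less like them, for reasons that were not tested. These correlations bear on the dye swap and not on which dye is the numerator. The reading rests on Rag1, a recombinase gene of immature thymocytes, with ratios of -1.37, -1.42 and -0.77 on arrays 1, 2 and 3 (limma adjusted p = 0.035). Dntt, the terminal transferase gene of the same cells, had -1.03, -1.77 and -0.35 and did not pass (adjusted p = 0.12). The sort and the deletion could not be checked, as Cd69 and Zap70 were not analysed here. The files hold ratios and no spot intensities, so how abundant a transcript was in either RNA is unknown. In such bulk RNA, more cells of a type and more RNA per cell cannot be told apart.

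H2-Aa and H2-Eb1, the classical chains, had the highest ratios of the 6. H2-Aa encodes the α chain of the I-A molecule, and its ratios were 2.40, 2.67 and 2.09 on arrays 1, 2 and 3. All 3 arrays were high, each above a 4-fold difference. Its mean of 2.39 ± 0.29 (SD, n = 3) corresponds to 5.24-fold and ranked 48th from the top among 8905 features. H2-Eb1 encodes the β chain of the I-E molecule, and its ratios were 2.19, 2.47 and 2.25. Its mean of 2.30 ± 0.14 (SD, n = 3), or 4.94-fold, had the smallest spread of the 6 genes. The ranges of H2-Aa and H2-Eb1 overlapped, and H2-Aa was the higher of them on arrays 1 and 2 but not on array 3.

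The invariant chain gene and the DO β chain gene followed. Cd74 encodes the invariant chain, which chaperones class II chains into endosomes and also acts as a surface receptor. Its ratios were 1.66, 1.49 and 1.85, with a mean of 1.67 ± 0.18 (SD, n = 3), or 3.17-fold. Cd74 was highest on array 3 and lowest on array 2, while the other 5 genes were highest on array 2. H2-Ob encodes the β chain of DO, the inhibitor of peptide exchange, which in mice is found mainly in B cells and some thymic stromal and dendritic cells. Its ratios were 1.41, 2.02 and 1.42, with a mean of 1.62 ± 0.35 (SD, n = 3), or 3.07-fold. Arrays 1 and 3 were nearly equal for H2-Ob and array 2 stood above them, which gave it the widest span of the 6 genes, 0.61. The ranges of H2-Ob and Cd74 overlapped.

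Ciita and H2-DMb1 had the lowest ratios. Ciita encodes the coactivator that sets the activity of class II genes, and its ratios were 0.97, 1.35 and 1.13. The mean was 1.15 ± 0.19 (SD, n = 3), or 2.23-fold, and array 1 fell just short of a 2-fold difference. H2-DMb1 encodes a β chain of the DM peptide exchanger, and its ratios were 0.69, 1.14 and 0.95. The mean of 0.93 ± 0.22 (SD, n = 3), or 1.90-fold, was the lowest of the 6, and array 2 alone exceeded a 2-fold difference. H2-DMb1 has a closely related neighbour, H2-DMb2, so a spotted cDNA probe may read transcripts of both, and its value is uncertain to that extent.

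**Figure D1:**
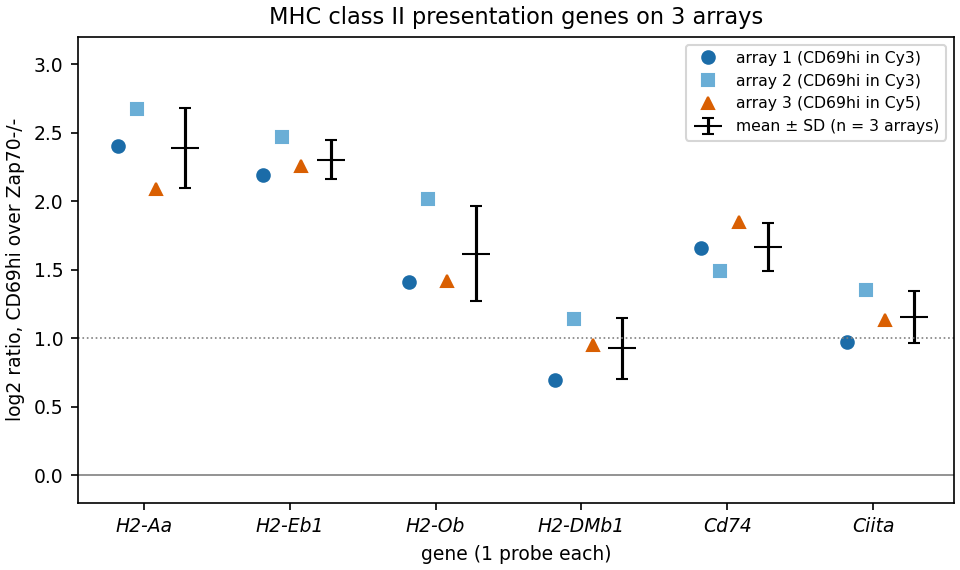
The y axis gives the log2 ratio of CD69hi over Zap70-/- RNA for 6 genes, with 1 point for each array and a cross with a bar for the mean ± SD over 3 arrays. The dotted line is a 2-fold difference. H2-Aa and H2-Eb1 lie highest, between 2.09 and 2.67, and H2-DMb1 lies lowest, between 0.69 and 1.14.

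All 6 genes were above 0 on every array, which their selection fixes. Ratios of 1 or more on all 3 arrays, a 2-fold difference each time, were seen in 4 of the 6, H2-Aa, H2-Eb1, Cd74 and H2-Ob, and in 1.89% of all 8905 features. Since this comparison chose the genes, nothing is read from that count. The median of the 6 genes reached 1.53, 1.76 and 1.63 on arrays 1, 2 and 3, so array 3, with reversed dyes, lay between the other arrays. The median of all features was 0.01 over the 3 arrays. The order of the genes was similar on the 3 arrays. Of 15 gene pairs, 13 differed with 1 sign on all 3 arrays and 12 had ranges that did not overlap. No such count was made for pairs of other features, so these counts are not read as a trait of the 6 genes. The pairs that changed order were H2-Aa with H2-Eb1 and H2-Ob with Cd74. H2-Eb1 exceeded Ciita by 1.22, 1.11 and 1.12 on the log2 scale on arrays 1, 2 and 3, and H2-DMb1 by 1.38 ± 0.10 (SD, n = 3) on average. H2-DMb1 was below Ciita on every array, by 0.23 ± 0.05 on average, although their ranges overlapped. These are differences between ratios, and probes can compress ratios to different degrees, which was not tested.

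Of the other chains and loading genes of the pathway, H2-DMa and H2-Ea were measured and neither passed the threshold (limma, Benjamini-Hochberg adjusted p of at most 0.05 over all features). By unadjusted p at that level, 1 of them, H2-DMa, was higher, as were 12.0% of all features. H2-DMa encodes the DM α chain, the partner of the H2-DMb1 product, and its ratios were 0.53, 0.81 and 0.96. Its mean of 0.77 ± 0.22 (SD, n = 3) was close to that of H2-DMb1 and fell just outside the threshold (limma adjusted p = 0.054). It passed with a dye term (adjusted p = 0.044). It did not pass with scaling (adjusted p = 0.054) or without any one of the 3 arrays (adjusted p from 0.069 to 0.35). H2-Ea is the I-E α chain gene, which C57BL/6 mice do not express because of a promoter deletion and which RefSeq lists as a transcribed pseudogene. Its ratios were -0.11, -0.40 and 0.24, with a mean of -0.09 ± 0.32 (SD, n = 3, limma adjusted p = 0.79). H2-Ea thus had both signs, while H2-Eb1, the gene of its partner chain, stayed above 2 on every array. H2-Ab1, H2-Oa, H2-DMb2 and H2-Eb2 were not analysed here.

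The same region of chromosome 17 holds class I processing genes between the class II genes. From H2-Oa to H2-Ea it has 15 protein-coding genes and transcribed pseudogenes in RefSeq, and 10 of them were measured. Tap1, a subunit of the class I peptide transporter, had a mean of 0.63 ± 0.14 (SD, n = 3, limma adjusted p = 0.066). Tap2, the other transporter subunit, had -0.35 ± 0.12 (adjusted p = 0.21), and Psmb8, an immunoproteasome subunit, -0.20 ± 0.42 (adjusted p = 0.60). Tap2 stands next to H2-Ob and was below 0 on every array. Brd2, a bromodomain gene between H2-Oa and H2-DMa, had 0.13 ± 0.04 (adjusted p = 0.60).

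**Figure D2:**
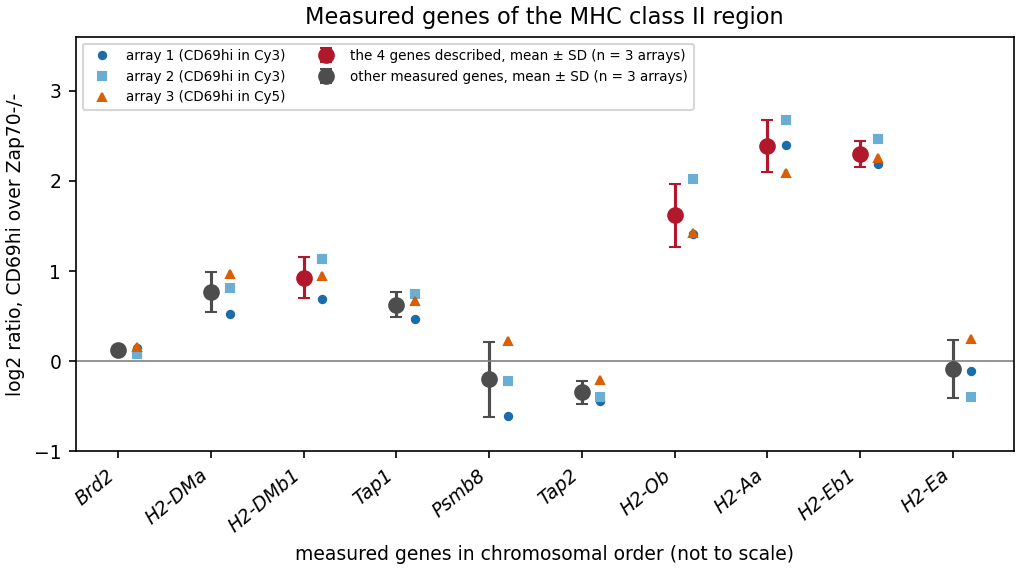
The y axis gives the log2 ratio of CD69hi over Zap70-/- RNA, and the x axis lists the 10 measured genes of the MHC class II region in chromosomal order, not to scale. Large points with bars are means ± SD over 3 arrays and small symbols are single arrays. H2-Ob, H2-Aa and H2-Eb1 lie above 1.4 on every array, while Psmb8, Tap2 and H2-Ea have means below 0.

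Because CIITA acts through the X and Y boxes, the other genes with the GCAAC and ATTGG pair were also listed. Of 49 such genes on the array outside the 6, 1 was higher, 2 were lower and 46 missed the threshold, and the median ratio was 0.02. Of 5324 genes whose promoter lacks the pair, 3.93% were higher and 3.01% lower, with a median of -0.00. The higher gene was Dusp6, a phosphatase of ERK kinases, at 1.69 ± 0.25 (SD, n = 3, limma adjusted p = 0.013), but missed it without array 2 (adjusted p = 0.055). The lower ones were the mitotic cyclin gene Ccnb2 (-1.17 ± 0.30) and the histone chaperone gene Nasp (-1.15 ± 0.11), which did not pass without array 1 or array 2 (adjusted p from 0.093 to 0.18).

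Across the wider pathway, 49 further genes were measured, drawn from lists of chains, peptide supply, transcription, and surface turnover and costimulation. The lists also hold genes with wider roles, such as the adhesion receptor gene Cd44 and the tetraspanin gene Cd53. Their counts therefore do not describe class II presentation alone, and 0 of the 2 other chain and loading genes were higher. Of these, 14 were higher in CD69hi RNA, 4 were lower and 31 did not pass. Without array 1 the number higher was 8 and the number lower 2, and without array 2 they were 6 and 2. Of all 8905 features, 4.13% were higher and 2.81% lower by the same limma threshold. Peptide supply, the endosomal proteases and their helpers, contributed 4 higher and 2 lower of 15, with a list median of 0.09. Without array 2, 2 were higher. Ctss, the cathepsin that trims the invariant chain in dendritic and B cells, was highest, with ratios of 2.85, 3.23 and 2.41 and a mean of 2.83 ± 0.41 (SD, n = 3, limma adjusted p = 0.0089). Ctsl, the cathepsin that does this work in cortical thymic epithelium, went the other way, with ratios of -1.82, -2.99 and -2.80 and a mean of -2.54 ± 0.63 (adjusted p = 0.017). Both proteases lay beyond a 3-fold difference on every array, in opposite directions. Ctsh, an aminopeptidase of the same family, rose (2.09 ± 0.32), as did Lgmn, the asparagine endopeptidase (1.63 ± 0.41), and Cst3, the cathepsin inhibitor cystatin C (1.02 ± 0.18). Ctse, an aspartic protease of endosomes, fell (-2.94 ± 0.44). Lgmn and Cst3, named after their values were seen, did not pass without array 2, nor Cst3 without array 1, nor Lgmn and Ctsl without array 3 (limma adjusted p from 0.054 to 0.19).

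Among 19 transcription genes of the pathway, 4 were higher, 1 was lower and 14 missed the threshold. The shares over all features were 4.13% higher and 2.81% lower. The list median was 0.01. Of the factors that hold CIITA on DNA, the genes Rfxank, Nfyb and Creb1 had mean ratios near 0. Other RFX and NF-Y subunits, apart from Nfya, were not analysed here. Rfxank, a subunit of RFX, had -0.15 ± 0.20 (SD, n = 3) and Nfyb, a subunit of NF-Y, -0.19 ± 0.22, and Creb1 had -0.09 ± 0.02. Nfya had -1.81, -0.29 and 2.04 on arrays 1, 2 and 3, which is a large spread with both signs (SD 1.94), so its mean of -0.02 carries little. Irf4, an interferon regulatory factor of lymphocytes and dendritic cells, rose (1.84 ± 0.20, limma adjusted p = 0.010). Spi1, which encodes the myeloid and B cell factor PU.1 (1.05 ± 0.34), Prdm1, which encodes Blimp-1, a repressor of Ciita (1.01 ± 0.16), and Irf1, an interferon-γ target that acts on Ciita (0.85 ± 0.07), were higher too. Ifngr1, a chain of the interferon-γ receptor, was lower (-1.12 ± 0.41). Irf4 was the 1 of these 5 genes that passed without each array in turn. Spi1, Prdm1, Irf1 and Ifngr1 did not pass without array 1 or array 2 (limma adjusted p from 0.12 to 0.26), nor Spi1 without array 3 (adjusted p = 0.056). Scaling of the arrays also ended the calls of Spi1 and Ifngr1 (adjusted p = 0.057 and 0.059), and a dye term that of Spi1 (adjusted p = 0.051).

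Surface turnover and costimulation genes were higher in 6 of 13 cases and lower in 1, with a median of 0.41. Over all features, 4.13% were higher and 2.81% lower. Leaving out array 1, 2 or 3 gave 4, 3 or 5 higher genes. Cd40 missed the threshold without each array in turn, and Cd37 without array 1 or array 2. Cd86, a ligand of CD28, had ratios of 1.67, 1.62 and 1.66 (mean 1.65 ± 0.03, SD, n = 3, limma adjusted p = 0.0095). Cd80, the other ligand of CD28, had -1.45, -1.61 and -1.19 (mean -1.42 ± 0.21, adjusted p = 0.017), so these related genes lay on opposite sides of 0 on every array. Cd80 did not pass without array 1 or array 2 (adjusted p = 0.067 and 0.089). The tetraspanin genes Cd53 (3.17 ± 0.23) and Cd82 (1.59 ± 0.17), some of whose family associate with class II at the surface, and the adhesion receptor gene Cd44 (2.15 ± 0.33), whose product pairs with the invariant chain, also rose. Without array 2, Cd82 missed the threshold (adjusted p = 0.058). Marchf1, the ubiquitin ligase that removes class II from the surface, had -0.33, 0.51 and -0.44 and did not pass (adjusted p = 0.85).

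MHC class I presentation, the sister pathway for cytosolic peptides, was measured in 10 genes. None passed in limma. By unadjusted limma p of at most 0.05, 3 were higher and 1 lower, beside 12.0% and 11.4% of all features. The list median was 0.03, against 1.64 for the 6 class II genes. B2m, the light chain of class I, had the highest mean, 0.73 ± 0.35 (SD, n = 3, limma adjusted p = 0.093), which lay below the mean of each of the 6 class II genes. B2m passed with a dye term (limma adjusted p = 0.0497). It did not pass with scaling (adjusted p = 0.082) or without any one of the 3 arrays (adjusted p from 0.10 to 0.42). No test of the difference between the pathways was made, since the class II genes were chosen by their ratios.

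Macrophage markers, and a few markers of dendritic and B cells, were higher in the same RNA, while thymic epithelial markers were not. Their part in the class II ratios was not tested. By unadjusted p of at most 0.05, the counts of which stand in brackets below, 12.0% of all features were higher and 11.4% lower. By the adjusted limma threshold, to which the other counts of all marker lists refer, 4.13% of all features were higher and 2.81% lower. Of 19 macrophage markers, 10 were higher and 0 lower in limma (14 and 0 by unadjusted p). The list median was 0.74, 1.26 and 1.09 on arrays 1, 2 and 3. Lyz2, a lysozyme gene, had 2.51 ± 0.08 (SD, n = 3), Apoe 2.46 ± 0.14 and the complement gene C1qa 2.23 ± 0.09. Ctss is on this list as well. The macrophage genes Marco (0.07 ± 0.42) and Itgam (0.04 ± 0.13) did not pass and had means near 0. Of 11 dendritic cell markers, 3 were higher and 0 lower (7 and 0 by unadjusted p), with a median of 0.67. They were the chemokine gene Ccl22 (3.07 ± 0.37), Cst3 and Naaa (0.84 ± 0.23). Ccl22 passed without each array in turn and was the 1 gene higher without array 1 or array 2. Dnase1l3, a nuclease gene, did not pass (limma adjusted p = 0.0503) but did with a dye term (adjusted p = 0.042). It did not pass with scaling (adjusted p = 0.0603) or without any one of the 3 arrays (adjusted p from 0.0516 to 0.415). Naaa did not pass without any one of the 3 arrays (adjusted p from 0.0503 to 0.35) or with scaling (adjusted p = 0.061).

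Of 15 B cell markers, 2 were higher and 0 lower in limma (6 and 0 by unadjusted p), with a median of 0.35. Jchain, the joining chain of secreted antibodies, had 1.47, 3.88 and 2.80 (mean 2.71 ± 1.21, SD, n = 3), and did not pass without array 2 or array 3 (adjusted p = 0.057 and 0.11). A dye term and scaling each ended its call too (adjusted p = 0.076 and 0.055). Cd72, a B cell coreceptor, had 0.95 ± 0.15 and did not pass without array 1 or array 2 (adjusted p = 0.11 and 0.24). The antigen receptor chains differed from each other, with Cd79a at 1.40 ± 0.70 and Cd79b at -0.35 ± 0.48, and neither passed (adjusted p = 0.062 and 0.40). Fcmr, an IgM receptor gene, had 2.77, -0.48 and 1.69 and did not pass (limma adjusted p = 0.29). It passed only when array 2, the array of opposite sign, was left out (adjusted p = 0.037). Each fit that left out 1 array had 1 higher marker, Jchain, Fcmr or Cd72, and no B cell marker passed in all of these fits. Ebf1 (-0.09 ± 0.32), Blk (0.03 ± 0.32), Spib (0.004 ± 0.25) and Btk (0.05 ± 0.40) did not pass and had means near 0.

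Of 12 thymic epithelial markers, 0 were higher and 1 was lower in limma (0 and 2 by unadjusted p), with a median of -0.18. The lower gene was Cldn4, a claudin of medullary epithelium (-0.94 ± 0.25, SD, n = 3), which did not pass without any one of the 3 arrays (adjusted p from 0.052 to 0.21). Epcam, an epithelial adhesion gene, did not pass (limma adjusted p = 0.11), nor without array 1 or array 2 (adjusted p = 0.37 and 0.44). It was lower when array 3 was left out or a dye term added (adjusted p = 0.029 and 0.035). Foxn1, the defining factor of thymic epithelium, had -0.05 ± 0.06. Of 12 granulocyte markers, 0 were higher and 1, S100a8 (-0.86 ± 0.27), was lower (2 and 8 by unadjusted p), with a median of -0.68. S100a8 did not pass without any one array (adjusted p from 0.052 to 0.35) or with scaling (adjusted p = 0.065). Without array 3, 4 other granulocyte genes were lower, among them S100a9 (-1.98 ± 1.17) and Ngp (-1.63 ± 1.07), at an adjusted p of 0.026 each, and both were also lower with a dye term (adjusted p = 0.024 and 0.029). Of 8 erythroid markers, none passed in limma (1 higher and 0 lower by unadjusted p), and Alas2 (0.53 ± 0.21) and Rhag (0.35 ± 0.20) had the largest means. Of 12 thymocyte markers, Lef1, a factor of T cell development (1.16 ± 0.17), was higher, Rag1 was lower and 10 did not pass (1 and 4 by unadjusted p). The list median was -0.16, and 7 of the 12 were below 0 on every array. Lef1 and Rag1 did not pass without array 1 or array 2 (adjusted p from 0.070 to 0.18). Cd8a, a coreceptor gene, had -1.13 ± 0.62 and did not pass (limma adjusted p = 0.081), nor without array 1 or array 2 (adjusted p = 0.25 and 0.28). It was lower when array 3 was left out or a dye term added (adjusted p = 0.043 and 0.048). Epcam, S100a9, Ngp and Cd8a each lay closest to 0 on array 3, the array with reversed dyes. A fit without array 3 holds no dye swap, so it cannot tell a dye effect from a difference between the RNAs.

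**Figure D3:**
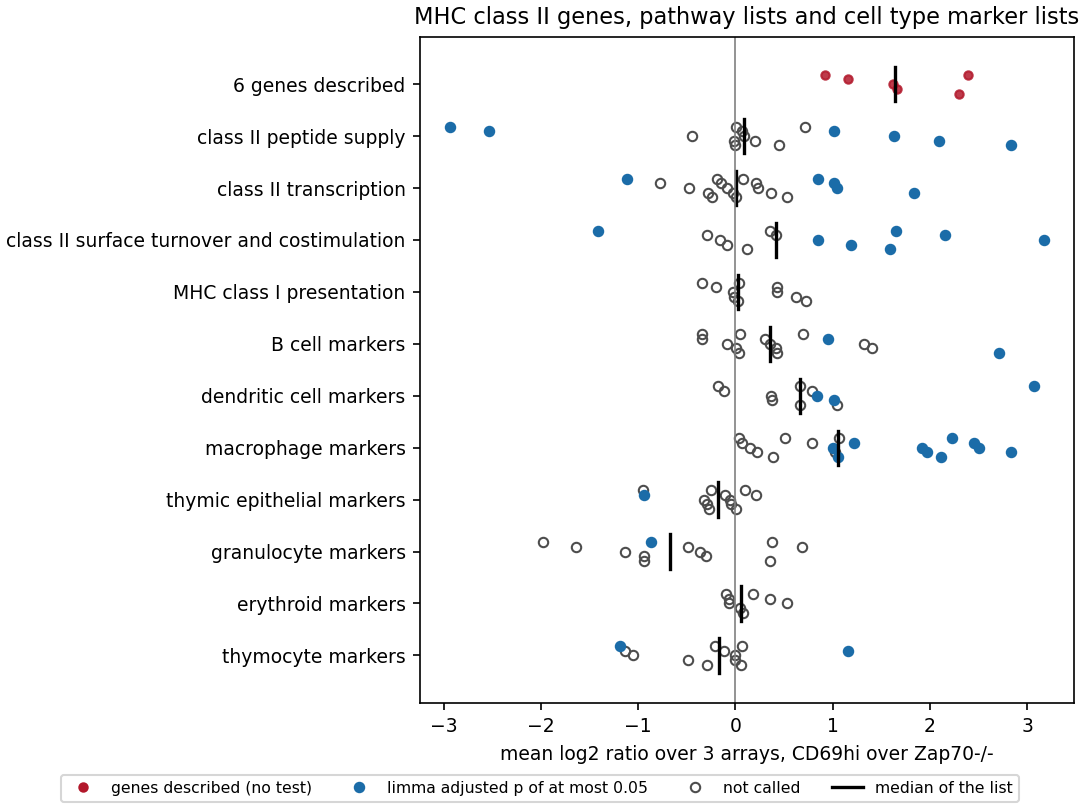
Each point is a gene at its mean log2 ratio of CD69hi over Zap70-/- RNA on 3 arrays (x axis), and each line on the y axis is a gene list, with points spread vertically for legibility. Red points are the 6 class II genes, which were not tested, blue points passed (limma adjusted p of at most 0.05), open points did not, and black bars are list medians. The median of the 6 genes, which were selected on these ratios, is 1.64, that of the macrophage markers 1.05 and that of the class I genes 0.03. The other class II chain and loading genes, H2-DMa (0.77) and H2-Ea (-0.09), are not drawn.

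The genes whose ratios lay closest to the median profile of the 6 were sought over the 3 arrays among 6789 other genes, by Euclidean distance on the log2 scale. They were Gata3 (distance 0.11), a factor of the CD4 lineage, Ier2 (0.15), an immediate early gene, Cd82 (0.17), Aif1 (0.18), a calcium-binding protein of macrophages, and Pcbp4 (0.19), an RNA-binding protein. With 3 arrays such a distance mainly matches the size of a ratio. For single genes, the nearest were C1qa for H2-Eb1 (0.17), Add1 for H2-Aa (0.28), Dusp5 for H2-Ob (0.25), Ecm1 for Cd74 (0.12), Tyk2 for H2-DMb1 (0.09) and Ms4a6c for Ciita (0.06). These neighbours include genes known from macrophages and genes known from T cells.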

How the data were processed

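The authors deposited 1 log ratio per probe and array for 3 spotted 2-colour arrays, taken here as log2 values. The sources used here name no log base, background correction, filter or normalization, and with a natural logarithm the folds would be larger. The arrays were centred near 0, and without intensities no filter on dim spots was possible. Of 9596 probes, 7486 had 1 symbol, 483 several and 1627 none in the platform annotation (RefSeq identifiers were found for 7395). Probes with 1 symbol were averaged per symbol (6795 genes) and the others stood alone, 8905 features in all.

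Arrays 1 and 2 were multiplied by -1. Features were fitted with limma 3.58.1 in R 4.3.3 (1 coefficient, 2 residual degrees of freedom, two-sided, Benjamini-Hochberg, threshold 0.05), after a test on simulated data. The 6 genes and all lists were chosen with earlier results of these data known. Named list genes are the called ones with the largest means (up to 4, or 2 largest means where none passed), plus the chain, RFX and NF-Y genes. Other genes, among them Lgmn, Cst3, Irf1, Creb1, Cd80, Marchf1, Marco, Itgam, Cd79a, Cd79b, Ebf1, Blk, Spib, Btk, Foxn1, Fcmr, S100a9, Ngp, Epcam, Cd40, Cd37, Dnase1l3, Cd8a, Brd2 and the genes with the promoter pair, were named after their values were seen.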

Additional observations from a re-analysis of the deposited data

How the results depend on the processing

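The mean ratios of the 6 genes moved by less than 1 SD with a dye term, with scaling, without each array in turn and with other handling of probes (1 probe each). With array 3 left unturned they moved, to 0.99 (H2-Aa), 0.80 (H2-Eb1), 0.67 (H2-Ob), 0.29 (H2-DMb1), 0.43 (Cd74) and 0.40 (Ciita), and all counts fell to 0 higher and 0 lower (limma, with 342 features by unadjusted p at the same level). With a dye term, which leaves 1 residual degree of freedom, 562 features were higher and 514 lower. Without each array in turn, the counts over all features ran from 95 to 283 higher and from 24 to 409 lower, and those of the 49 other pathway genes from 6 to 11 higher and from 2 to 3 lower. These fits have fewer arrays, and that without array 3 holds no dye swap. The macrophage count stayed within 1.5 times of its value under the alternatives other than the unturned array. Only 3 arrays limit the precision, and without intensities the distance of each spot from background is unknown. Each ratio compares both RNAs on 1 array, so the fit to the ratios is already paired by array.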
